A study of Mus musculus with 3 samples.

Results

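The genes described here are 29 interferon-stimulated genes, followed across the cell classes of LLC1 tumours grown in the mouse tibia. They were chosen by symbol from a fixed list, and all 29 were found among the 55357 genes of the matrices. The rule used no measured value, but the list was set with earlier results of these data known. They comprise the Ifit family (Ifit1, Ifit2, Ifit3, Ifit3b) and the Oas family (Oas1a, Oasl1, Oasl2, Oas3). Isg15, Mx1, Rsad2, Bst2, Cmpk2, Samd9l and Ifi47 are grouped as other effectors. The RNA and DNA sensors are Zbp1, Ifih1 and Dhx58, and the regulators are Irf7, Stat2 and Usp18. The 8 others are Ifi44, Rtp4, Ifi27l2a, Ifi35, Parp14, Trim30a, Xaf1 and Phf11d.

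LLC1 is a mouse Lewis lung carcinoma line, so the tumour cells of every sample came from 1 line. It was injected into the tibial marrow of 8-week-old mice of 3 genotypes, and tumours were taken on day 14. The genotypes were wild type, DMP1-Cre Mfn2 (Mfn2-/-) and DMP1-Cre Rhot1 (Rhot1-/-). Mfn2 encodes a mitochondrial fusion GTPase and Rhot1 a GTPase that couples mitochondria to motors. DMP1-Cre is used to delete genes in osteocytes and late osteoblasts, so the deletion lies in host bone cells and not in the injected cells. No Cre is named for the wild-type mice, so an effect of Cre and of the deletion cannot be told apart. Each genotype is 1 droplet library, a pool of viable cells of 3 mice, and the files give no map from cells to mice. No difference between genotypes therefore has a replicate check. The wild-type library serves as the control of both knockouts, so their 2 sets of ratios are not independent. All intervals are 95% intervals of counting error only.

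The libraries held 9393 to 10016 barcodes with median depths of 9927 to 12024 UMIs, and 27739 cells were kept. Pairs of libraries shared 20 to 35 barcodes. No cluster was named osteocyte-like, and the osteocyte markers Dmp1 (9, 6 and 3 UMIs in wild-type, Mfn2 and Rhot1 tumours), Sost (1, 0 and 0) and Mepe (0 in each) were close to absent. The fourth listed marker, Phex, gave 578, 908 and 768 UMIs. Mfn2 (16.2, 20.3 and 20.7 per 1000000 UMIs of kept cells) and Rhot1 (23.1, 23.7 and 25.2) therefore do not check the deletion. Clusters were built without interferon-stimulated genes, so that their levels did not place cells, and were named from marker lists. The tumour-like class held 3825 to 5549 cells per library, macrophage-like 969 to 1093, monocyte-like 682 to 850, neutrophil-like 475 to 919 and T cell-like 105 to 299. Classes are compared as a description, with no test.

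Type I interferons bind the receptor of Ifnar1 and Ifnar2 and act through the kinases Jak1 and Tyk2 and a transcription factor complex that holds Irf9 and binds interferon-stimulated response elements in promoters. Interferon gamma binds the receptor of Ifngr1 and Ifngr2 and acts mainly at gamma-activated sites. Most of the 29 genes are known targets of type I interferon, and several also answer interferon gamma. Their products block viral translation or budding, sense foreign nucleic acids, or feed back on the pathway. In tumours, such genes mark myeloid and tumour cells exposed to interferon.

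The promoters below are shown for the letters through which many of these genes are known to be switched on. RefSeq promoter entries on GRCm38.p6, which run from 250 bases before to 50 bases after the gene start, were found for 22 of the 29 genes. The letters GAAANNGAAA, on either strand and with overlapping matches joined, stood in 11 of the 22. They stood in 1068 of 27003 other genes with an entry (3.96%). The letters TTCNNNGAA, which read the same on both strands, stood in 4 of the 22 (18.2%) and in 9.55% of the other genes. A match is a description of letters and not a shown binding site. Each line gives the 250 bases before the start, 5′ to 3′ on the gene's strand, with matches to the first motif in capitals. Isg15, Ifit1, Ifit3 and Rsad2 are some of the genes on which the comparisons below turn, and Bst2 is the gene with the reverse class order. Ifi47 is shown as a promoter without the letters. The promoters of Ifit2, Cmpk2 and Irf7 had no match to the first motif either. Ifit2 and Cmpk2 are among the genes furthest from wild type in Rhot1 monocyte-like cells, so the promoters shown do not stand for all such genes.
Isg15 (chr4:156200819-156201068, minus strand): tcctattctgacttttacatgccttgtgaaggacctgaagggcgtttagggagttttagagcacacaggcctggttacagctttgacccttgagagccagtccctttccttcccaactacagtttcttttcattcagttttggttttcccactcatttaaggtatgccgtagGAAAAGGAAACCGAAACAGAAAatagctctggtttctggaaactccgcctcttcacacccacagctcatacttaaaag
Ifit1 (chr19:34640639-34640888, plus strand): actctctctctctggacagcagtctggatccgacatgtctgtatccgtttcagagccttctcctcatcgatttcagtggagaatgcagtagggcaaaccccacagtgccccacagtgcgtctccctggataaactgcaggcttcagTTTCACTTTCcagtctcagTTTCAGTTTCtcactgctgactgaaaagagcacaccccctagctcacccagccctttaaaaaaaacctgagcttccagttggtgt
Ifit3 (chr19:34583279-34583528, plus strand): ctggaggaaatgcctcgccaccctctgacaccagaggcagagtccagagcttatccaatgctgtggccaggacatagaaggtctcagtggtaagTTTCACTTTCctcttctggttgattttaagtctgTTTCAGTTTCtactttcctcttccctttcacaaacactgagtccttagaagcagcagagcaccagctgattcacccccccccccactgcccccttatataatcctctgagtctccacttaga
Rsad2 (chr12:26456453-26456702, minus strand): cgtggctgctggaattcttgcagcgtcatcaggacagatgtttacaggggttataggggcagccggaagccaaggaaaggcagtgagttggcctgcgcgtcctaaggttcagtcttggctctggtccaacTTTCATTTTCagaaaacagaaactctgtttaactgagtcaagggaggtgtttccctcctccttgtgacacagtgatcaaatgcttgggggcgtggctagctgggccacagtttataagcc
Bst2 (chr8:71537473-71537722, minus strand): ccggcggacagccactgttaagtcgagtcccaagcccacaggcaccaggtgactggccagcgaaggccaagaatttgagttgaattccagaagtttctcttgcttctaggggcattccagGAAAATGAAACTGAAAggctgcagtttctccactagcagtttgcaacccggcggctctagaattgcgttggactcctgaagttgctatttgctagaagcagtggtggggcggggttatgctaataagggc
Ifi47 (chr11:49076337-49076586, plus strand): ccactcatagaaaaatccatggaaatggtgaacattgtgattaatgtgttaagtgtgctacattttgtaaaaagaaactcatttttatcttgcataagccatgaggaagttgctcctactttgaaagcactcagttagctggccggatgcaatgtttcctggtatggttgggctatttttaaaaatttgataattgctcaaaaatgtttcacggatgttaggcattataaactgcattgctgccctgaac

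The Isg15 matches ran from 78 to 57 bases before the start, those of Ifit1 from 104 to 76, and the match of Rsad2 from 120 to 111. The 11 genes with a match were Isg15, Ifit1, Ifit3, Ifit3b, Oas1a, Oas3, Stat2, Rsad2, Bst2, Ifih1 and Trim30a. Some members are neighbours in the genome (mm10 coordinates, GENCODE M21). Ifit2 (chr19:34550694-34576419), Ifit3 (chr19:34583531-34588731), Ifit3b (chr19:34607970-34613401) and Ifit1 (chr19:34640871-34650009) lie within the same stretch of chromosome 19. Rsad2 (chr12:26442746-26456452) lies beside Cmpk2 (chr12:26469204-26479837) on the other strand. Isg15 is at chr4:156199424-156200818, Bst2 at chr8:71534255-71537456 and Irf7 at chr7:141262706-141266481. All of these are protein-coding.

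Summed over the 29 genes, interferon-stimulated RNA was lowest in tumour-like cells and highest in monocyte-like cells of every library, among the 5 classes with over 100 cells in each. The unit here is CPM, the UMIs of a gene per 1000000 UMIs of the class in that library. Tumour-like cells held 570 (565 to 576) CPM in wild-type, 482 (478 to 487) in Mfn2 and 563 (558 to 568) in Rhot1 tumours. Macrophage-like cells held 1783, 1833 and 2139 CPM, and monocyte-like cells 3207, 3326 and 4076. The order tumour, macrophage, monocyte did not change between libraries. Neutrophil-like cells (1966, 2038 and 2620 CPM) lay above the macrophage-like class in each library, and T cell-like cells (1888, 1607 and 2885) lay above it in 2 of the 3. Of the small classes, plasmacytoid dendritic cell-like cells, the best known source of type I interferon, held 3281, 3852 and 3126 CPM in 14, 3 and 11 cells. Bst2 alone gave 2117 to 2237 CPM of these sums, and the Ifit family and Rsad2 had no UMI there. NK cell-like cells held 1133, 1054 and 1158 CPM, and this sum did not differ beyond counting error between genotypes. By role, the Rhot1 ratio to wild type there was 0.27 (0.10 to 0.62) for the Ifit family and 2.00 (1.18 to 3.44) for the regulators. These rest on 33 and 7 UMIs, and on 25 and 39, in wild-type and Rhot1 tumours. The other role ratios of both knockouts had intervals that held 1.

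**Figure D1:**
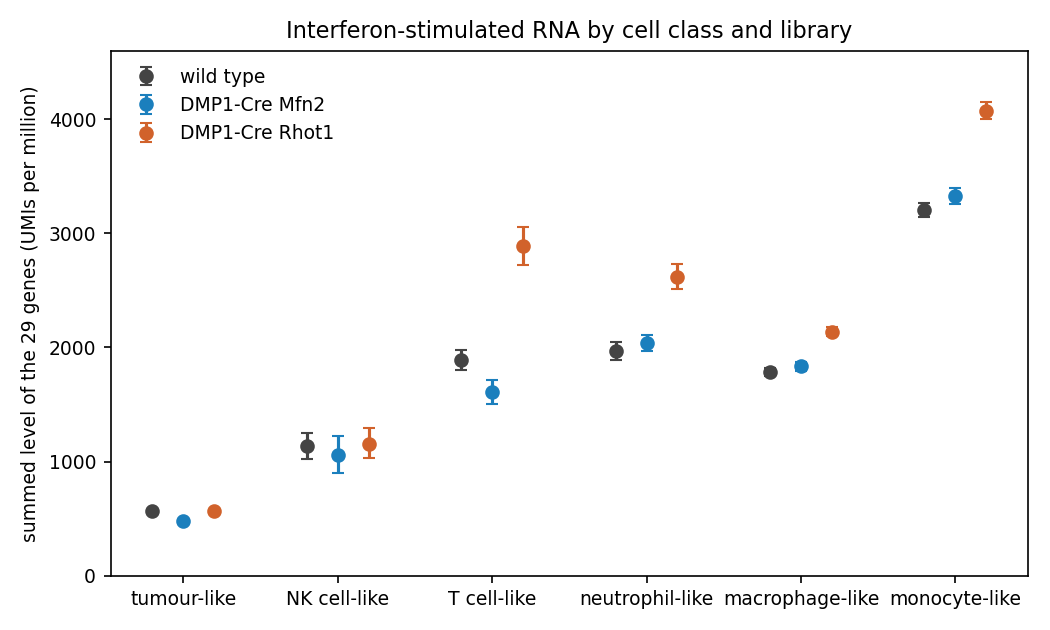
Summed level of the 29 genes (y axis, UMIs per 1000000) in 6 cell classes (x axis), with 1 point per library and exact Poisson 95% intervals. Tumour-like cells sit at 482 to 570 and monocyte-like cells at 3207 to 4076, and the Rhot1 point is the highest of the macrophage-, monocyte-, neutrophil- and T cell-like classes.

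The class order differed from gene to gene. By the mean of the 3 libraries, 17 of the 29 genes were highest in monocyte-like cells, 7 in neutrophil-like, 3 in macrophage-like, and 1 each in T cell-like and tumour-like cells. The monocyte-like class was the highest in all 3 libraries for 12 genes. Tumour-like cells were the lowest of the 5 classes for 23 genes, 21 of them in all 3 libraries.

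Ifi27l2a, which encodes a small hydrophobic interferon-induced protein, was highest in monocyte-like cells. Its level in monocyte-like cells was 1287 CPM in wild-type, 1337 in Mfn2 and 1268 in Rhot1 tumours. T cell-like cells held 633, 500 and 1155 CPM, macrophage-like cells 482, 454 and 575, and neutrophil-like cells 298, 409 and 377. Tumour-like cells held 12.9, 9.12 and 10.5 CPM. The 3 monocyte-like values lay close together and above every value of the other classes given here.

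Bst2 (tetherin), a membrane protein that holds budding virions on the cell surface, had the reverse order. It reached 350, 297 and 324 CPM in tumour-like cells of wild-type, Mfn2 and Rhot1 tumours, against 248, 239 and 279 in the macrophage-like class. Neutrophil-like cells held 163, 152 and 119 CPM. The Pearson r of Bst2 with the other members over these cells was -0.04, 0.003 and 0.03. The tumour keratin Krt8 stood there at 36.3%, 49.9% and 33.8% of its tumour-like level. The part of tumour RNA in these Bst2 values was not tested. Bst2 was the only 1 of the 29 genes that was higher in tumour-like than in macrophage-like cells in all 3 libraries. At least 1 Bst2 UMI was found in at least 93.0% of tumour-like cells of each library at full depth, where the class has median depths of 15661 to 18039 UMIs.

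Isg15, a ubiquitin-like protein that is attached to other proteins, was highest in neutrophil-like cells, at 367, 288 and 483 CPM. Monocyte-like cells held 214, 206 and 370 CPM and tumour-like cells 25.6, 19.6 and 29.9. Trim30a, a member of the TRIM family of ubiquitin ligases, had its highest level in neutrophil-like cells too (175, 161 and 184 CPM), and Samd9l (100, 115 and 151 CPM) and Rtp4 (96.5, 85.1 and 120 CPM) showed the same order. Neutrophil-like cells were not high for every member. Mx1, a dynamin-like GTPase against influenza-type viruses, gave 0, 0 and 1.23 CPM there, against 32.3, 39.4 and 68.4 in monocyte-like cells.

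Oasl1, a translational inhibitor of Irf7 in mouse, was the only measured member highest in macrophage-like cells in all 3 libraries (31.9, 37.8 and 42.1 CPM). Ifi47, an immunity-related GTPase, was highest in T cell-like cells by its mean (96.8, 40.9 and 148 CPM) but not in the Mfn2 library. The Oas family split by class. Oasl2 was highest in neutrophil-like cells of all 3 libraries (136, 127 and 164 CPM, against 63.2, 72.4 and 82.3 in monocyte-like cells), while Oas1a was highest in monocyte-like cells (28.3, 35.0 and 32.9). Oas3 changed place between neutrophil-like (39.9, 60.3 and 68.6) and monocyte-like cells (41.3, 41.8 and 61.7).

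Of the 5 classes, the sensors were highest in monocyte-like cells. Zbp1, which senses Z-form nucleic acids and can start necroptosis, was at 130, 111 and 138 CPM in monocyte-like cells and at 93.5, 57.6 and 110 in T cell-like cells. Tumour-like cells held 2.65, 1.29 and 1.78 CPM of it. Ifih1 (MDA5), a sensor of long double-stranded RNA, was at 42.5, 39.4 and 54.5 CPM in monocyte-like cells, and Dhx58 (LGP2), its regulator, at 28.96, 26.5 and 43.0. In T cell-like cells Ifih1 was at 22.8, 7.43 and 14.4 CPM and Dhx58 at 10.9, 9.29 and 19.1. Both were below 3 CPM in tumour-like cells of every library, where their order between genotypes rests on few UMIs per cell.

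Stat2, the type I interferon signal carrier, had the smallest spread between libraries in macrophage-like cells, at 41.4, 41.2 and 41.9 CPM. Its levels in tumour-like cells were 14.0, 14.0 and 16.1 CPM. Irf7 lay far lower in tumour-like cells (5.81, 5.55 and 7.83 CPM) than in macrophage-like cells (77.3, 91.3 and 111).

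Ifi44 stayed under 10 CPM in all 5 classes and is not described further. Oas1a, Phf11d, Trim30a and Ifit3 share 56.1%, 25.3%, 19.9% and 14.9% of the 50-base words of their last 500 transcript bases with another gene (Oas1g, Phf11c, Trim30d and Ifit3b for most of them), so their counts are uncertain.

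**Figure D2:**
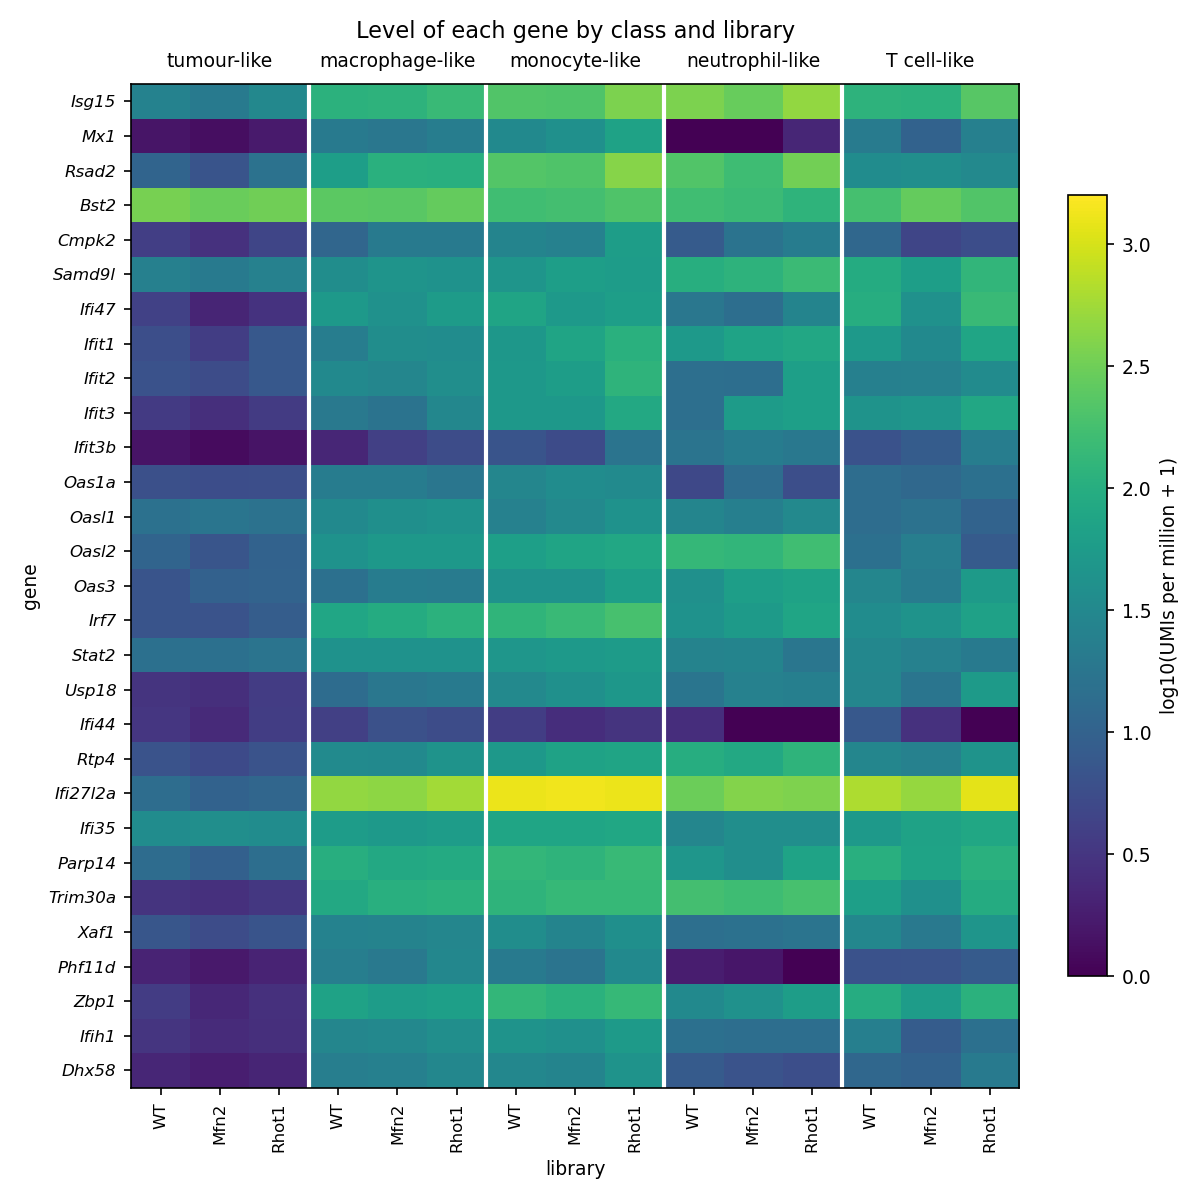
Level of each of the 29 genes (rows, by role) in 5 classes of each library (columns), as log10 of UMIs per 1000000 plus 1. The tumour-like columns are dark except for Bst2, Ifi27l2a is brightest in monocyte-like cells, and Mx1 and Phf11d are near 0 in neutrophil-like cells.

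RNA released from broken cells can enter every droplet, which matters for low levels in tumour-like cells. The macrophage genes C1qa, C1qb, C1qc, Lyz2, Cd74 and Apoe stood in tumour-like cells at 0.401% to 0.792% of their macrophage-like level. The 29 genes stood at 1.71% (Trim30a, Mfn2 library) to 141% (Bst2, wild-type library) of theirs. The tumour keratin Krt8 was found in macrophage- and monocyte-like cells at 9.86% to 12.2% of its tumour-like level. The share in neutrophil-like cells, which have median depths of 1071 to 1289 UMIs, was 36.3% in wild-type, 49.9% in Mfn2 and 33.8% in Rhot1 tumours. The T cell-like class held 30.04%, 54.0% and 14.8%. The part of this tumour RNA in the neutrophil- and T cell-like results was not tested.

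The members were found together in the same cells. Each cell was thinned to 1000 UMIs, and the list was split into its odd and even positions. In monocyte-like cells with 3 or more UMIs of the odd members, the even members reached 2429, 2488 and 3737 UMIs per 1000000 in wild-type, Mfn2 and Rhot1 tumours. In those with no odd-member UMI they reached 321, 375 and 380. The ratio was 7.57, 6.63 and 9.82 in monocyte-like cells, 4.60, 6.45 and 6.46 in macrophage-like cells, and 7.94, 8.29 and 8.42 in tumour-like cells. Cells with 3 or more odd-member UMIs numbered 259, 201 and 228 in the monocyte-like class and 136, 120 and 156 in the macrophage-like class. In the tumour-like class they numbered only 28, 22 and 52, or 0.74%, 0.40% and 0.99% of the thinned cells. Within monocyte-like cells, Isg15 tracked the sum of the other members with a Pearson r of 0.49, 0.48 and 0.62 over cells, and Irf7 with 0.45, 0.48 and 0.62. These correlations are over cells that share a library and differ in depth. Dhx58 was among the weakest, at 0.17, 0.15 and 0.25.

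A small share of cells held much of the RNA. At 1000 UMIs per cell, 58.4% (56.8 to 60.0), 64.4% (63.1 to 65.7) and 60.9% (59.6 to 62.2) of tumour-like cells had no UMI of any member in wild-type, Mfn2 and Rhot1 tumours. In monocyte-like cells the share was 25.9%, 21.4% and 22.6%, with overlapping intervals. The top 10% of monocyte-like cells held 47.6%, 47.1% and 55.3% of all member UMIs. In those top cells the summed level was 15647, 16221 and 23458 UMIs per 1000000. In the other cells it was 1920, 2038 and 2103. The Rhot1 library thus stood further from wild type in its top cells than in the rest.

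**Figure D3:**
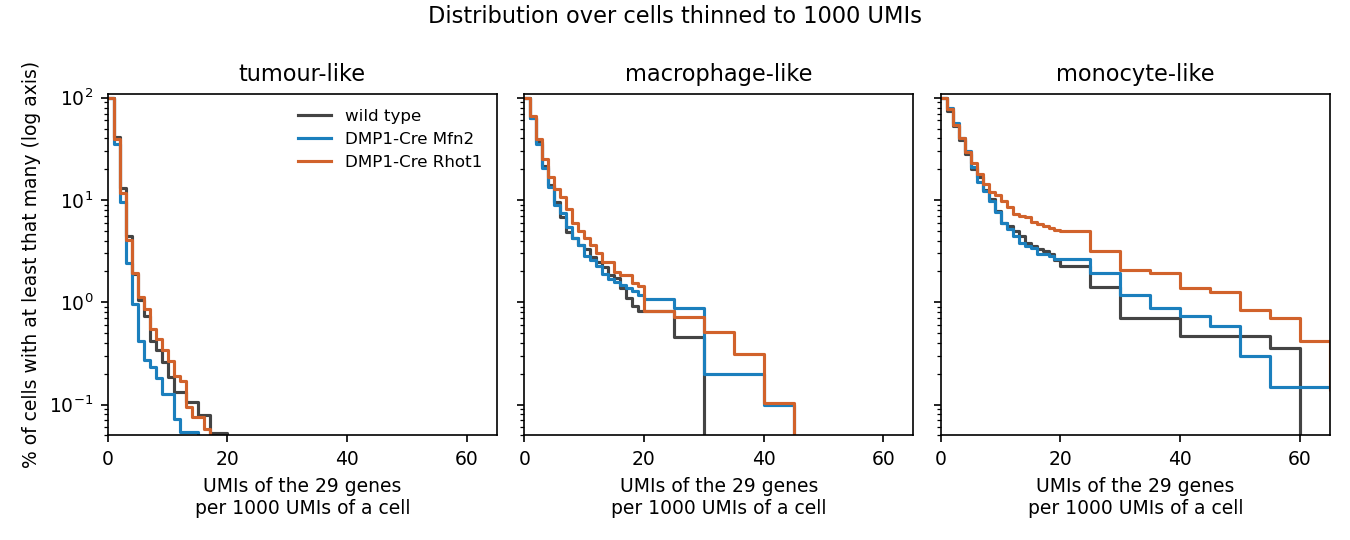
Share of cells (y axis, log scale) with at least the given number of UMIs of the 29 genes (x axis) after thinning to 1000 UMIs, for 3 classes and 3 libraries. The Rhot1 curve of monocyte-like cells runs above the other curves from 10 to 60 UMIs, and the Mfn2 curve of tumour-like cells runs below them over most of the range.

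Genes outside the list that were most like it over cells are named by the highest mean Pearson r of the 3 libraries. In monocyte-like cells these were Ms4a4c (0.48), Slfn5 (0.48), Ifi203 (0.46), Ifi204 (0.46), Mndal (0.44), Ifi209 (0.42), Ly6e (0.42) and Phf11b (0.41). In macrophage-like cells Slfn5 (0.42), Ifi203 (0.40) and Ly6a (0.39) led, and in tumour-like cells Ly6c1, Gbp7 and Ly6a (each 0.36). In neutrophil-like cells Ifitm3 (0.36), Slfn4 (0.33) and Isg20 (0.31) led. Ifi203 was among the 8 leading genes of tumour-, macrophage- and monocyte-like cells.

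In monocyte-like cells the Rhot1 library held more RNA of most members than wild type. A gene counts as measured from 10 CPM in either library, with 20 UMIs over both, and as higher or lower at a 1.5-fold ratio. Of 28 measured members, 11 were higher and 0 lower, against 3.82% of all 7777 genes higher and 2.28% lower by the same rule. The median log2 ratio (5 CPM added to both levels) was 0.50 (0.17 to 0.76), and that of all genes was 0.03. Here and below, brackets after a median hold the median lower and the median upper limit of the single genes. They are not an interval of the median itself. The ratio was above 1 for 26 of the 28, and its interval lay above 1 for 20.

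The Ifit family, whose proteins bind viral RNA and block its translation, stood furthest from wild type there. Ifit2 was at 49.9 CPM in wild-type, 59.9 in Mfn2 and 118 in Rhot1 tumours, a Rhot1 ratio of 2.37 (1.96 to 2.87). Ifit1 was at 47.8, 72.4 and 106 CPM (2.21, 1.82 to 2.70). Ifit3b had a higher Rhot1 ratio than Ifit2, but at low levels of 4.42 to 15.9 CPM over the 3 libraries. The summed family ratio was 2.11 (1.89 to 2.36), so the Rhot1 library lay above both others for the family.

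Among the other effectors, Rsad2 (viperin), an enzyme that makes a chain-terminating nucleotide, was at 221, 210 and 418 CPM. Cmpk2, the mitochondrial nucleotide kinase beside it in the genome, was at 26.5, 24.5 and 59.0 CPM, a Rhot1 ratio of 2.22 (1.71 to 2.92). For both, wild-type and Mfn2 values lay close together and the Rhot1 value apart. Isg15 (214, 206 and 370 CPM) and Mx1 (32.3, 39.4 and 68.4 CPM) had the same shape. The effectors together had a ratio of 1.60 (1.52 to 1.68).

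The other roles stood closer to wild type, and the summed ratio of all 29 genes was 1.27 (1.24 to 1.30). The ratio was 1.39 (1.23 to 1.56) for the Oas family, which makes or resembles the makers of the second messenger of RNase L. It was 1.43 (1.29 to 1.59) for the regulators and 1.17 (1.05 to 1.30) for the sensors. The 8 other members, which held 1718 of the 3207 CPM of wild type, had a ratio of 1.03 (0.99 to 1.07). Irf7, the factor that amplifies type I interferon genes, was at 123, 147 and 183 CPM, and Usp18, which removes Isg15 from proteins and damps the receptor, at 31.4, 39.0 and 47.8. The 2 lowest ratios were those of Ifi47 (0.84, 0.69 to 1.02) and Ifi27l2a (0.98, 0.94 to 1.03). The single monocyte-like cell with most member UMIs held 3.03% of those of the Rhot1 class.

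In the Mfn2 library, monocyte-like cells stood near wild type in sum, with a ratio of 1.04 (1.01 to 1.07). By role it was 1.21 (1.07 to 1.38) for the Ifit family, 1.15 (1.01 to 1.30) for the Oas family and 1.18 (1.05 to 1.32) for the regulators. The sensors had 0.87 (0.77 to 0.99), the other effectors 0.98 (0.93 to 1.05) and the remaining members 1.04 (0.997 to 1.08). Of 27 measured members, 1 was higher and 0 lower, against 4.66% and 3.91% of 7792 genes. Their median log2 ratio was 0.05 (-0.21 to 0.32). Ifit1 had the highest ratio at 1.52 (1.22 to 1.89), and it fell short of the fold under 7 of the alternatives. With separate clustering of the libraries its log2 ratio was -0.66, the median was -0.25 and 9 members were lower. Ifi47 had the lowest, at 0.71 (0.56 to 0.88), with 72.4 CPM in wild-type and 51.1 in Mfn2 tumours.

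**Figure D4:**
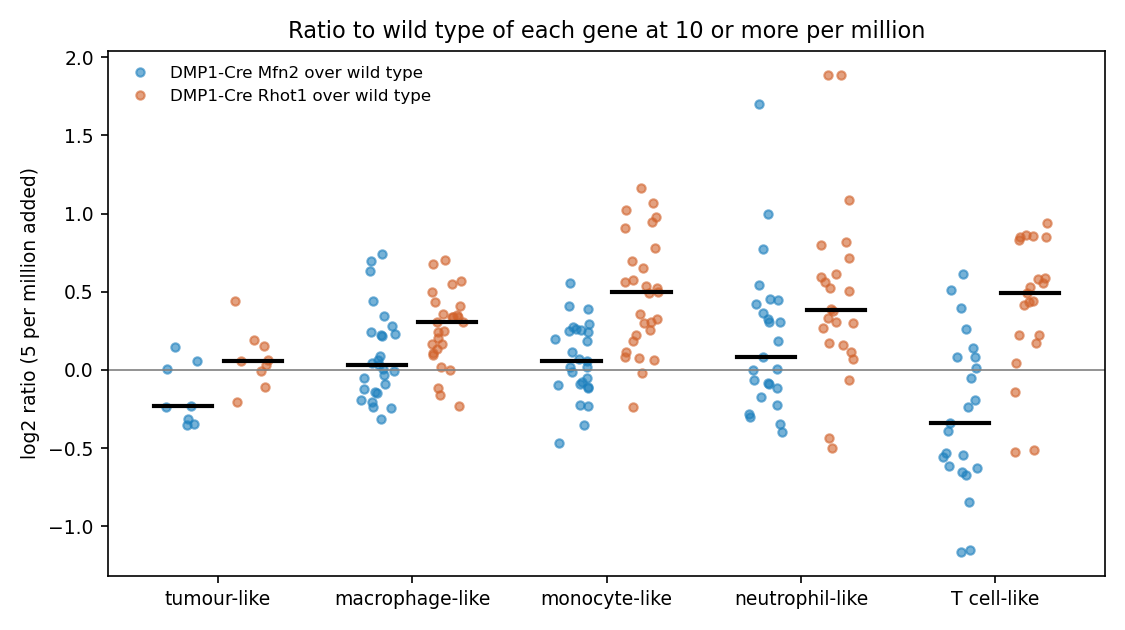
Log2 ratio to wild type (y axis, 5 CPM added) of each measured member in 5 classes (x axis), with the median as a bar. The Rhot1 median is 0.31 in macrophage-, 0.50 in monocyte- and 0.39 in neutrophil-like cells, and the Mfn2 medians of these classes lie between 0.03 and 0.08.

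Macrophage-like cells of the Rhot1 library showed a smaller difference in the same direction as the monocyte-like cells. Of 27 measured members, 4 were higher and 0 lower, against 2.31% and 1.56% of 8095 genes, and the median log2 ratio was 0.31 (0.07 to 0.50). The ratio was above 1 for 23 of the 27. The count of higher members ran from 1 (coarser or separate clustering) to 8 (both clusters weighted alike). Rsad2 was at 61.3 CPM in wild-type, 106 in Mfn2 and 103 in Rhot1 tumours. Cmpk2 was at 10.4, 19.96 and 19.7 CPM. For this neighbouring pair both knockout values lay above wild type. The lowest Rhot1 ratios were those of Oas1a (0.82, 0.62 to 1.06) and Parp14 (0.889, 0.791 to 0.998).

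In macrophage-like cells of the Mfn2 library, 3 of 27 members (Rsad2, Cmpk2 and Ifit1) were higher than in wild type and 0 lower, against 2.84% and 2.93% of 8060 genes. The median log2 ratio was 0.03 (-0.20 to 0.30), with 15 ratios above 1 and 12 below. These 3 genes depended on which cells were called macrophage-like. With interferon-stimulated genes kept in the clustering, the log2 ratio was -0.38 for Rsad2 and -0.12 for Cmpk2. The macrophage-like class joined cluster 5 (626, 778 and 700 cells) and cluster 9 (467, 237 and 269 cells), whose shares differed between libraries. Within each of them the summed ratio had the same order. It was 1.02 for Mfn2 and 1.19 for Rhot1 in cluster 5, and 1.16 and 1.32 in cluster 9.

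Tumour-like cells of the Mfn2 library held less RNA of the 29 genes than wild type. The summed ratio was 0.85 (0.83 to 0.86), and Bst2 alone gave 350 of 570 CPM in wild-type and 297 of 482 CPM in Mfn2 tumours. Only 8 members were measured, none of them 1.5-fold higher or lower, against 1.39% and 0.902% of 8203 genes. Their median log2 ratio was -0.23 (-0.28 to -0.18). Without the level minimum 10 of the 29 were lower and 0 higher, against 18.6% and 18.4% of 27385 genes by that rule.

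Isg15 was at 25.6 CPM in wild-type and 19.6 in Mfn2 tumour-like cells, a ratio of 0.77 (0.72 to 0.82). Parp14, an ADP-ribosyltransferase, had the lowest ratio among measured members, 12.5 against 8.70 CPM (0.70, 0.63 to 0.77), followed by Ifi27l2a (0.71, 0.64 to 0.77). The 2 highest were Oasl1 (1.15, 1.06 to 1.24) and Ifi35 (1.05, 0.995 to 1.10). The Oas family as a whole had a ratio of 1.02 (0.97 to 1.08) while the Ifit family had 0.69 (0.63 to 0.76).

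The Rhot1 tumour-like cells lay near wild type in sum, with a ratio of 0.99 (0.97 to 1.00), where Bst2 alone gave 324 of 563 CPM. The roles differed. The ratio was 1.21 (1.12 to 1.32) for the Ifit family, 1.22 (1.15 to 1.30) for the regulators, 1.10 (1.05 to 1.16) for the Oas family and 0.79 (0.69 to 0.90) for the sensors. Of 9 measured members, 1 was higher and 0 lower, against 0.922% and 0.667% of 8246 genes. That gene was Rsad2, at 9.81 CPM in wild-type, 5.74 in Mfn2 and 15.1 in Rhot1 tumours (1.54, 1.41 to 1.69), and it fell short of the fold under 5 of the alternatives, such as the stricter cell filter. Ifi27l2a had the lowest ratio, 0.82 (0.75 to 0.89). With 0.06, the median log2 ratio equalled that of all genes (0.06) at this rounding.

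The tumour-like class is made of 5 clusters whose shares differed between libraries, and the members' level differed between the clusters. Cluster 8 had the highest summed level in every library, at 971, 771 and 905 CPM in wild-type, Mfn2 and Rhot1 tumours. It made up 21.02%, 7.23% and 12.3% of the class. No tumour marker was among its 10 leading genes, and 3 of them (Fgfr1, Sema3a and Igfbp4) also led cluster 7, which was left unnamed. Without cluster 8 the Mfn2 median log2 ratio of the class was -0.08 in place of -0.23. Within that cluster the ratios to wild type were 0.79 (0.76 to 0.82) and 0.93 (0.90 to 0.96). In clusters 0 and 1 they were 0.87 and 0.81 for Mfn2, and 0.91 and 0.92 for Rhot1. In cluster 2 they were 1.00 and 1.16, and in cluster 3 they were 1.06 and 1.43. The lower level of the Mfn2 library was thus seen in 3 of the 5 clusters.

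Neutrophil-like cells of the Rhot1 library had a summed ratio of 1.33 (1.26 to 1.41). Of 24 measured members, 10 were higher and 1 lower, against 9.16% and 13.2% of 7518 genes. Ifit3 was at 13.6 CPM in wild-type, 55.2 in Mfn2 and 63.7 in Rhot1 tumours, and Ifit2 at 13.6, 13.5 and 63.7. For Ifit3 the wild-type value lay apart from both knockout libraries, and for Ifit2 the Rhot1 value lay apart from the others. These values rest on few cells. Ifit3 had a UMI in 1.28%, 4.57% and 4.63% of neutrophil-like cells, and Ifit2 in 1.28%, 0.87% and 3.37%. The median log2 ratio of 0.39 (-0.02 to 0.95) was -0.12 with the stricter cell filter, where 4 members were higher.

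In the Mfn2 library, 4 of 25 members were higher and 0 lower in neutrophil-like cells, against 17.6% and 8.96% of 8201 genes. Their median log2 ratio was 0.08, and that of all genes 0.13. At a Leiden resolution of 2 the count was 14 higher and the median 0.64, so both changed with the clustering. Rsad2 (0.76, 0.64 to 0.90) and Ifi47 (0.77, 0.41 to 1.44) had the lowest ratios, and that of Isg15 was 0.79 (0.69 to 0.89).

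T cell-like cells differed between the knockout libraries in the classes as built here. Of 23 measured members, 2 were higher and 9 lower in the Mfn2 library, against 16.1% and 15.8% of 7681 genes. In the Rhot1 library 10 of 21 were higher and 2 lower, against 9.43% and 14.3% of 7261 genes. The Mfn2 median log2 ratio of -0.34 was 0.32 with cells thinned to 1500 UMIs, where 5 members were higher and 0 lower, and 0.03 with doublets kept, so its direction was not stable. Ifi47 was at 96.8 CPM in wild-type, 40.9 in Mfn2 and 148 in Rhot1 tumours, and Ifi27l2a at 633, 500 and 1155. These values rest on 299, 105 and 156 cells, and Krt8 was at 178, 379 and 90.9 CPM in them. The part of the tumour RNA that Krt8 marks was not tested.

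Of the interferon genes themselves only Ifng was detected beyond single UMIs. Ifng, made by activated T and NK cells, gave 121, 54 and 106 UMIs in all kept cells of the wild-type, Mfn2 and Rhot1 libraries. These UMIs were found in 63, 28 and 33 cells. In T cell-like cells its level was 85.9 (68.0 to 107), 91.0 (67.3 to 120) and 211 (169 to 259) CPM. The Rhot1 interval lay above the other intervals. All of these intervals treat UMIs as independent, while the UMIs came from few cells. The 11 other ligand genes listed, among them Ifnb1 and Ifna4, gave 6 UMIs in 27739 cells. At this depth their RNA was not detectable beyond that.

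Of 18 receptor and signalling genes, 12 were measured in tumour-like cells and 17 in macrophage- and monocyte-like cells of either comparison. Ifnar1 was at 93.96, 78.8 and 92.5 CPM in monocyte-like cells and Ifngr1 at 396, 369 and 386, with intervals of the ratios that held 1. In each of these 3 classes 0 of the measured genes were 1.5-fold higher in either knockout library. By the same rule 0.922% to 4.66% of all genes were higher and 0.667% to 3.91% lower. With so few genes measured, a count of 0 lies near that share. Genes lower by that fold included Irf1 in each comparison except that of the Rhot1 macrophage-like cells, and Socs1 in the Rhot1 macrophage-like cells.

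Irf1, an interferon gamma-induced factor, was at 27.6, 15.7 and 18.3 CPM in tumour-like cells, 54.4, 34.5 and 37.0 in macrophage-like cells, and 70.6, 44.6 and 45.7 in monocyte-like cells. Wild type was the highest in all 3 classes.

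A list of 18 genes that lean to interferon gamma, among them the guanylate-binding proteins, had medians below wild type in macrophage- and monocyte-like cells of both knockout libraries. In macrophage-like cells 12 were measured and all 12 had ratios under 1 in both knockout libraries. The median log2 ratio was -0.51 (-0.65 to -0.29) for Mfn2 and -0.35 (-0.58 to -0.12) for Rhot1, with 5 and 3 genes 1.5-fold lower. These ratios did not hold within both clusters of the class. In cluster 5 all 11 measured genes were under 1 in both libraries, with medians of -0.59 and -0.27. In cluster 9, whose leading genes include H2-Ab1, H2-Eb1, H2-Aa and Cd74, 14 were measured, and the medians were -0.02 for Mfn2 and 0.02 for Rhot1. The summed level of the list in cluster 9 was 1362 CPM in wild-type, 1489 in Mfn2 and 1428 in Rhot1 tumours, and in cluster 5 it was 484, 335 and 405. Cluster 9 made up 42.7%, 23.3% and 27.8% of the class. In monocyte-like cells it was -0.70 (-1.06 to -0.34) and -0.28 (-0.74 to 0.06), with 8 of 14 and 6 of 13 lower and 1 and 0 higher. The median limits of the Rhot1 monocyte-like genes lay on both sides of 0. The summed level in neutrophil-like cells was 383, 347 and 404 CPM, with overlapping intervals. In T cell-like cells it was 668 (616 to 723), 438 (384 to 498) and 883 (795 to 978) CPM, so the Rhot1 library was the highest there. The Rhot1 median was 0.34 in each of these 2 classes, with median limits on both sides of 0. Tumour-like cells held 65.2, 37.6 and 45.0 CPM of the list. The background shares are those given above for macrophage- and monocyte-like cells.

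Cxcl9, a chemokine for T cells, was at 219, 150 and 180 CPM in macrophage-like cells and at 132, 56.7 and 31.2 in monocyte-like cells of wild-type, Mfn2 and Rhot1 tumours. Gbp2, a guanylate-binding protein, was at 227, 114 and 134 CPM in monocyte-like cells. Ciita, the activator of MHC class II genes, was at 58.6, 38.6 and 43.1 CPM in macrophage-like cells. For each of these, wild type was the highest in the class. Within cluster 9, whose Ciita level was far above that of cluster 5, wild type was the lowest (145, 165 and 166 CPM), with ratios of 1.14 for both knockout libraries and intervals that held 1. Nos2, the inducible nitric oxide synthase, was higher in the Mfn2 monocyte-like cells (27.8 CPM) than in wild type (9.55 CPM). The UMIs of Ifng numbered 79, 49 and 88 in T cell-like cells and 32, 2 and 12 in NK cell-like cells of the 3 libraries. T cell-like cells made up 3.31%, 1.10% and 1.71% of kept cells, and the part of these shares in the list's levels was not tested.

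**Figure D5:**
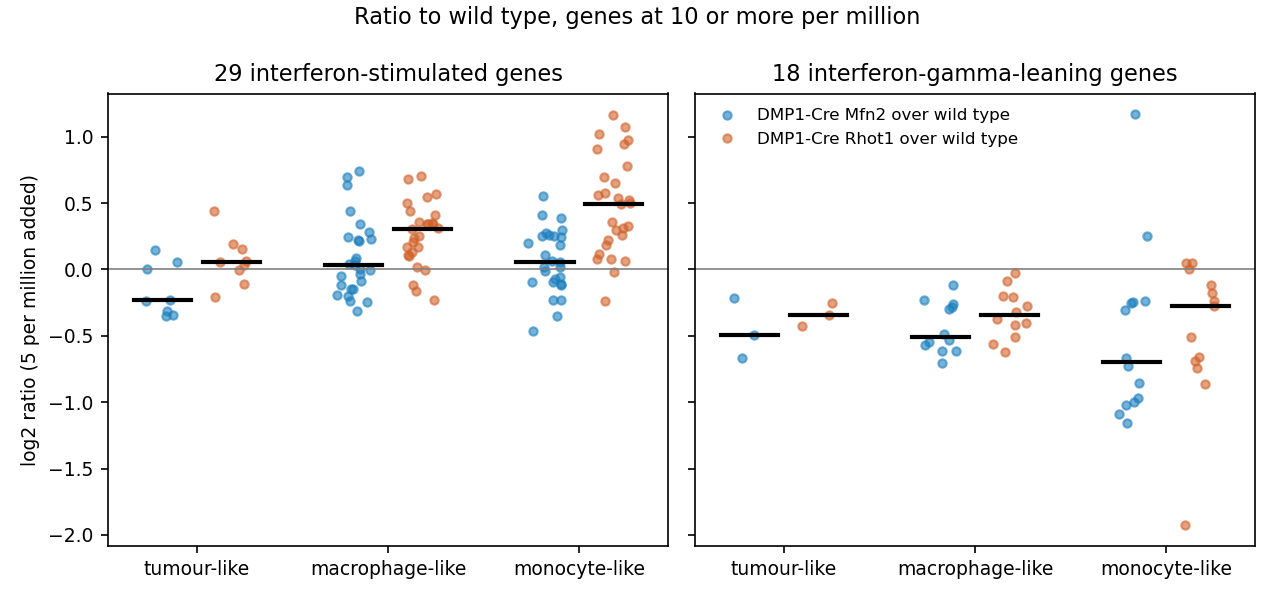
Log2 ratio to wild type (y axis, 5 CPM added) of measured genes of the 29 interferon-stimulated genes (left) and of the 18 interferon-gamma-leaning genes (right) in 3 classes, with medians as bars. In monocyte-like cells the Rhot1 median is 0.50 on the left and -0.28 on the right.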

How the data were processed

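Droplet 3' UMI counts were deposited by the authors as 1 matrix per genotype. Per the file headers they came from Cell Ranger 7.0.0, and per the submitters' processing notes the build was mm10. The gene annotation was not given in the sources used. Cells of at least 300 genes and no more than 15% mitochondrial UMIs were kept, doublets marked by Scrublet (2.36% to 3.12%) were removed, and 22 Leiden clusters were made jointly (scanpy 1.11.5, leidenalg 0.10.2, 2000 genes, 30 components, 15 neighbours, resolution 1) without 188 interferon-related genes. Clusters were named from marker lists by a scoring rule set after seeing the data. UMIs were summed per class and library, with exact Poisson, binomial or conditional intervals that treat UMIs as independent. The members and lists were chosen with earlier results of these data known. No test was run, since a genotype is 1 library. Genes named among the ratios are mainly the 2 highest and 2 lowest per comparison, beside members given by level and listed pathway genes at 10 CPM or more. The values of 1 listed signalling gene are not reported here. The computation was tested on simulated Poisson counts of whole classes. These leave out the spread between cells, so the test does not cover it. In these counts the 1.5-fold rule called 11.2% (Mfn2) and 15.5% (Rhot1) of unchanged genes in neutrophil-like cells, and 0% in tumour-like cells. Alternatives changed the cell filter, doublets, clustering, thinning, weighting, scaling and minimum level.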

Additional observations from a re-analysis of the deposited data

How the results depend on the processing

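The higher median of the 29 genes in Rhot1 monocyte-like cells kept its direction under every alternative run, between 0.37 and 0.54, and its 11 higher genes stayed within 1.5 times that count. The Rhot1 macrophage-like median kept its direction too (0.12 to 0.36), as did the Mfn2 tumour-like median (-0.42 to -0.08). The medians of Rhot1 tumour-, Mfn2 macrophage-, Mfn2 monocyte-, Mfn2 neutrophil-, Rhot1 neutrophil- and Mfn2 T cell-like cells changed sign under at least 1 alternative. Values that moved follow, and the cause was not tested. Mfn2 tumour-like cells had a median log2 ratio of -0.35 with the stricter cell filter, -0.33 with interferon genes kept in clustering, unnamed clusters added, -0.13 with resolution 0.5, -0.42 with separate clustering, -0.29 with thinning to 1500 UMIs, -0.082 with cluster 8 left out and -0.16 with no level minimum (-0.23 as reported). Rhot1 tumour-like cells had a median log2 ratio of -0.064 with the stricter cell filter, -0.036 with interferon genes kept in clustering and -0.091 with separate clustering (0.058 as reported). Mfn2 monocyte-like cells had a median log2 ratio of -0.25 with separate clustering (0.055 as reported). Mfn2 neutrophil-like cells had a median log2 ratio of 0.64 with resolution 2 (0.083 as reported). Rhot1 neutrophil-like cells had a median log2 ratio of -0.12 with the stricter cell filter (0.39 as reported). Rhot1 tumour-like cells had a count of members 1.5-fold higher of 0 with the stricter cell filter, interferon genes kept in clustering, separate clustering, unnamed clusters added, median-ratio scaling and 2 with doublets kept, thinning to 1500 UMIs, no level minimum (1 as reported). Mfn2 macrophage-like cells had a count of members 1.5-fold higher of 1 with doublets kept, 0 with interferon genes kept in clustering, resolution 0.5 and 5 with separate clustering, no level minimum (3 as reported). Rhot1 macrophage-like cells had a count of members 1.5-fold higher of 2 with interferon genes kept in clustering, 1 with resolution 0.5, separate clustering, 7 with thinning to 1500 UMIs and 8 with clusters weighted alike (4 as reported). Mfn2 monocyte-like cells had a count of members 1.5-fold higher of 0 with the stricter cell filter, doublets kept, interferon genes kept in clustering, resolution 2, separate clustering, the top cell left out, median-ratio scaling (1 as reported). Mfn2 neutrophil-like cells had a count of members 1.5-fold higher of 7 with doublets kept, clusters weighted alike and 14 with resolution 2 (4 as reported). Rhot1 neutrophil-like cells had a count of members 1.5-fold higher of 4 with the stricter cell filter, 6 with interferon genes kept in clustering, separate clustering and 5 with resolution 2 (10 as reported). Mfn2 tumour-like cells had a count 1.5-fold lower of 3 with the stricter cell filter, interferon genes kept in clustering, thinning to 1500 UMIs, unnamed clusters added, 2 with doublets kept, 5 with separate clustering, 1 with clusters weighted alike and 10 with no level minimum (0 as reported). Rhot1 tumour-like cells had a count 1.5-fold lower of 1 with no level minimum (0 as reported). Mfn2 macrophage-like cells had a count 1.5-fold lower of 1 with doublets kept, interferon genes kept in clustering, resolution 0.5 (0 as reported). Mfn2 monocyte-like cells had a count 1.5-fold lower of 2 with doublets kept, 1 with resolution 2, thinning to 1500 UMIs, no level minimum and 9 with separate clustering (0 as reported). Mfn2 neutrophil-like cells had a count 1.5-fold lower of 1 with the stricter cell filter, thinning to 1500 UMIs, clusters weighted alike, no level minimum and 3 with separate clustering (0 as reported). Rhot1 neutrophil-like cells had a count 1.5-fold lower of 2 with the stricter cell filter, clusters weighted alike, 0 with doublets kept, resolution 2, separate clustering, thinning to 1500 UMIs and 3 with no level minimum (1 as reported). Tumour-like cells had a summed CPM (mean of 3 libraries) of 559 with the stricter cell filter, 568 with doublets kept, interferon genes kept in clustering, 504 with resolution 0.5, 589 with thinning to 1500 UMIs, 581 with clusters weighted alike, 560 with unnamed clusters added and 500.3 with cluster 8 left out (538 as reported). Macrophage-like cells had a summed CPM (mean of 3 libraries) of 1960 with doublets kept, 2040 with separate clustering, 2000 with thinning to 1500 UMIs, 1881 with the top cell left out and 2022 with clusters weighted alike (1918 as reported). Monocyte-like cells had a summed CPM (mean of 3 libraries) of 3320 with the stricter cell filter, 4503 with doublets kept, 4732 with interferon genes kept in clustering, 3327 with resolution 0.5, 3692 with resolution 2, 3307 with separate clustering, 3690 with thinning to 1500 UMIs and 3446 with the top cell left out (3536 as reported). Neutrophil-like cells had a summed CPM (mean of 3 libraries) of 2970 with the stricter cell filter, 2897 with doublets kept, 2027 with interferon genes kept in clustering, 2745 with resolution 2, 2619 with separate clustering, 2433 with thinning to 1500 UMIs and 1720 with clusters weighted alike (2208 as reported). Tumour-like cells had a co-detection ratio (mean of 3 libraries) of 4.70 with thinning to 3000 UMIs (8.22 as reported). Macrophage-like cells had a co-detection ratio (mean of 3 libraries) of 4.13 with thinning to 3000 UMIs (5.84 as reported). Monocyte-like cells had a co-detection ratio (mean of 3 libraries) of 5.87 with thinning to 3000 UMIs (8.01 as reported). The log2 ratio reversed for Ifit1 (Mfn2, macrophage-like) -0.0087 with doublets kept, Rsad2 (Mfn2, macrophage-like) -0.38 with interferon genes kept in clustering, Cmpk2 (Mfn2, macrophage-like) -0.12 with interferon genes kept in clustering, Rsad2 (Mfn2, macrophage-like) -0.13 with resolution 0.5, Ifit1 (Mfn2, monocyte-like) -0.66 with separate clustering, Cmpk2 (Mfn2, neutrophil-like) -1.16 with thinning to 1500 UMIs, Rsad2 (Rhot1, neutrophil-like) -0.18 with the stricter cell filter, Stat2 (Rhot1, neutrophil-like) 0.26 with thinning to 1500 UMIs and Ifi47 (Rhot1, neutrophil-like) -0.083 with clusters weighted alike. Adding unnamed clusters and leaving out cluster 8 were chosen after seeing the data. No paired analysis was possible because each genotype is 1 library. Neutrophil- and T cell-like cells have median depths of 1071 to 2569 UMIs, which limits the members measured there.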

Other observations

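Among the unnamed clusters, the members' level also differed between libraries. Cluster 7, led by Mmp3, Lum and Dcn, held 1142, 305 and 421 cells in wild-type, Mfn2 and Rhot1 tumours, and its summed level was 739, 782 and 941 CPM. Cluster 13, led by Thbs1, Arg1, Hmox1 and Mmp12, held 310, 171 and 89 cells at 2008, 1404 and 3445 CPM. The Mfn2 level of cluster 13 was 0.70 (0.64 to 0.76) and the Rhot1 level 1.72 (1.59 to 1.85) times that of wild type. Neither cluster could be named from its markers, and no replicate stands behind these values.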
